A study of Mus musculus with 20 samples.

Results

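Molecular chaperones and folding enzymes of the endoplasmic reticulum (ER) were measured in the brain of mice that carry a null mutation of a single gene. The members were the genes of the Hspa, Hspb, Hspd, Hspe, Hsph and Hsp90 symbols, of the Dnaj and Pdia symbols and of the numbered Cct symbols, with Stip1, Calr and Canx. A probe counted when it had a single gene symbol and a value on 2 or more arrays in every region. This gave 94 probes of 51 genes, out of 15245 probes on the arrays, of which 12356 passed the same demand on values. Of the members, 80 probes of 49 genes entered the tests, among 8316 features tested.

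Chaperones bind unfolded or unstable proteins and let them fold, refold or be degraded. In the cytosol, Hsp70 proteins take up clients from J-domain proteins, exchange factors such as Hsph1 release them, and Stip1 passes some of them on to Hsp90, while the ring-shaped chaperonin CCT folds actin and tubulin. In the ER, the lectin chaperones Canx and Calr hold sugar-carrying proteins, the Pdia enzymes form and rearrange disulfide bonds, and the Hsp70 protein Hspa5 binds unfolded chains. In neurons, Dnajc5 and Hspa8 keep proteins of the synaptic vesicle folded. Heat shock factors drive many of the cytosolic members, and the unfolded protein response drives many of the ER members.

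The null group was RNA from cortex, hippocampus, cerebellum or brain stem-diencephalon of these null mutant mice, and the wild-type group was a pool of RNA from that region of wild-type mice, hybridised to the other channel of the same array. Each region had 5 cDNA arrays, 3 with the null RNA in channel 1 and 2 dye swaps with it in channel 2. The labels say that the RNA was amplified. The sources used here give neither strain, age and sex nor the number of animals in the pool, and do not state whether numbers mark separate animals, so the p-values cover only differences among these preparations and may reflect technical spread.

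The values are log2 ratios of null over wild type, with the sign of the swapped arrays turned. The deposited order of the channels is not stated; it was taken as channel 1 over channel 2, and with the opposite order every direction given here turns. Values of a gene are listed by region in the order of the replicate numbers. One swapped array appeared nearly unchanged under cerebellum and brain stem-diencephalon (r = 0.995 over 6748 probes) and was left out of both, which left 18 arrays. Arrays of a region with the same number were averaged, which gave 4 replicates in cortex and 3 in each other region. Cortex replicate 4 is a swapped array without a number, possibly a second array of one of the other cortex extracts. Arrays held values for 6793 to 13963 probes, and precision is set by how few arrays there are. Ratios hold no level, so the region labels could not be set against regional markers, and fewer cells of a type cannot be told apart from less RNA per cell.

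Over the mean of the 4 regions, 10 of the 49 members passed the test, at a threshold of 0.05 on p adjusted over all features. Pdia4, Hsph1, Stip1, Canx, Calr and Dnajb1 fell in null brain, and Dnajc10, Cct2, Dnajc5 and Hspa13 rose. The members called were 20.4% of those tested, against 17.0% of all features tested (1414 of 8316), so the share of calls lay near that of the array as a whole. Of the members 12.2% fell and 8.16% rose, against 8.50% of all features in each direction (707 and 707). The median ratio was -0.01 over the members and 0.01 over all features, 22 members lay above 0 and 27 below it, 11 were lower in all 4 regions and 12 were higher in all 4. Values after ± are standard errors of the fit. The fitted mean weighs the regions equally and sets channel orientation aside, so it can differ from the plain mean of the replicates.

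**Figure D1:**
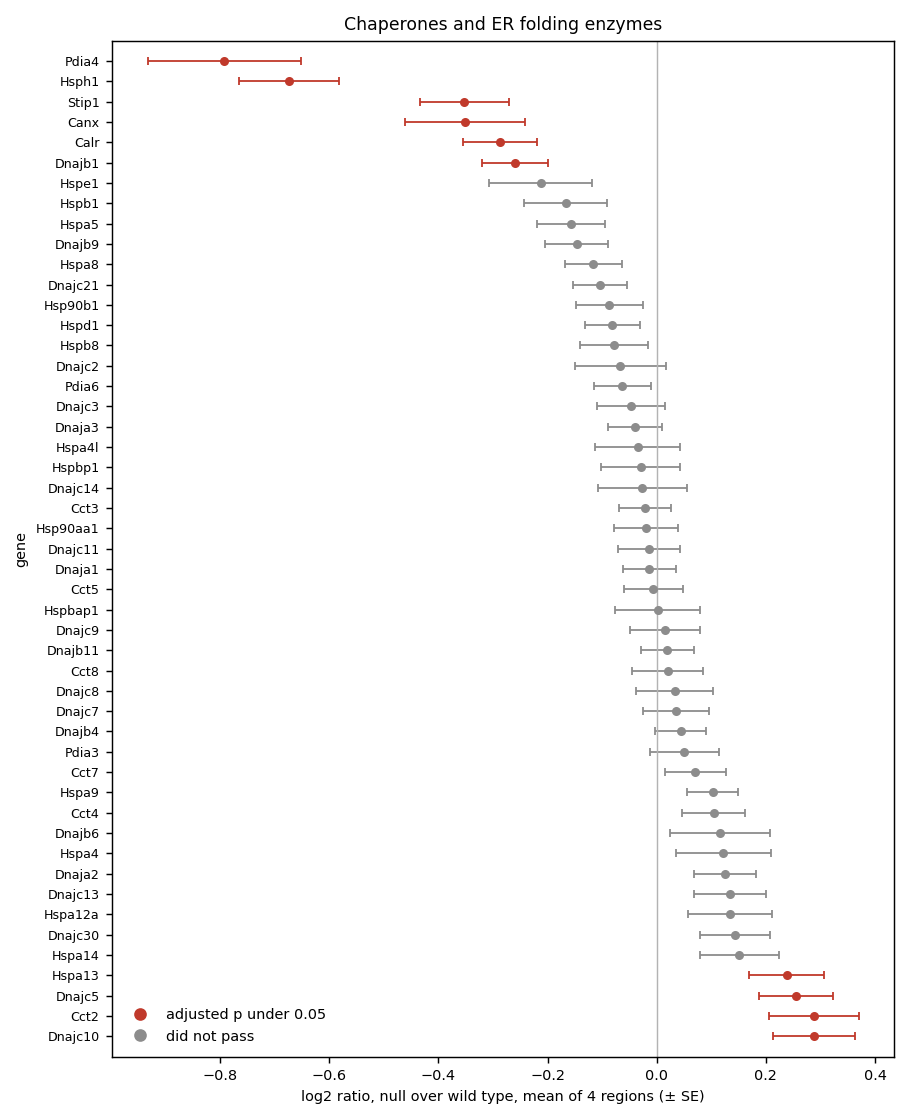
Log2 ratio of null over wild type for the 49 members, as the mean of 4 regions on the x axis with its standard error, with genes down the y axis from the lowest to the highest. Red points passed the test; Pdia4 and Hsph1 stood lowest, at -0.79 and -0.67, and all grey points but Hspe1, at -0.21, lay between -0.17 and 0.15.

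The lectin chaperones and disulfide isomerases of the ER held 3 of the 6 members that fell. Of their 5 tested genes 3 fell and none rose, against 8.50% of all features tested in each direction. A share of so few genes is coarse, and it was not tested against that of all features. The median ratio of these 5 genes was -0.29, against -0.01 over all members. Pdia4, also called ERp72, a disulfide isomerase with several thioredoxin-like domains, had log2 ratios of -0.21, -0.69, -0.62 and -2.02 (cortex), -0.23, -0.88 and -0.72 (hippocampus), 0.28, -0.98 and -0.41 (cerebellum) and -0.20 and -0.61 (brain stem-diencephalon replicates 1 and 3). The replicate numbered 1 was the highest in each of the 4 regions, the only value above 0 was cerebellum replicate 1, and the unnumbered cortex replicate lay far below the rest. Pdia4 averaged -0.79 ± 0.14 (SE, n = 12, adjusted p = 0.00549), 1.73-fold lower in null brain, and 11 of 12 replicates were below 0. Its call was lost without cortex replicate 4 (-0.58, adjusted p = 0.0946).

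Canx, or calnexin, the membrane-bound lectin chaperone, had ratios of 0.17, -0.44, -0.68 and -0.87 (cortex), 0.13, -0.43 and -0.67 (hippocampus), 0.24, -0.41 and -0.24 (cerebellum) and -0.13, -0.35 and -0.19 (brain stem-diencephalon). The values above 0 were those of replicate 1 in cortex, hippocampus and cerebellum, and every other replicate was below 0. Canx averaged -0.35 ± 0.11 (SE, n = 13, adjusted p = 0.0435), 1.28-fold lower in null brain. Its call was lost without cortex replicate 2 (-0.36, adjusted p = 0.0664) or 4 (-0.24, adjusted p = 0.350), hippocampus 2 (-0.34, adjusted p = 0.0991), cerebellum 2 (-0.30, adjusted p = 0.182) or 3 (-0.34, adjusted p = 0.0700), and brain stem-diencephalon 1 (-0.40, adjusted p = 0.0545), 2 (-0.34, adjusted p = 0.0662) or 3 (-0.35, adjusted p = 0.0673).

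Calr, or calreticulin, the soluble partner of calnexin and a calcium-binding protein of the ER lumen, had ratios of 0.25, -0.22, -0.40 and -0.45 (cortex), -0.03, -0.35 and -0.08 (hippocampus), 0.09, -0.56 and -0.33 (cerebellum) and -0.52, 0.13 and -0.05 (brain stem-diencephalon). It was below 0 in 10 of 13 replicates and averaged -0.29 ± 0.07 (SE, n = 13, adjusted p = 0.0146), 1.22-fold lower in null brain. The call was lost without cortex replicate 4 (-0.30, adjusted p = 0.0906), cerebellum 2 (-0.26, adjusted p = 0.0780) or brain stem-diencephalon 1 (-0.27, adjusted p = 0.0639). Pdia3, or ERp57, the isomerase that works with Canx and Calr, did not pass, at 0.05 ± 0.06 (SE, n = 13, adjusted p = 0.604), with replicates of 0.33, 0.16, 0.21 and -0.06 (cortex), -0.08, 0.09 and 0.27 (hippocampus), 0.59, -0.10 and 0.17 (cerebellum) and 0.11, 0.24 and -0.04 (brain stem-diencephalon). Pdia6 had -0.06 ± 0.05 (adjusted p = 0.418). Pdia5 was not tested because it had no value from one orientation in cerebellum, and its ratio over 12 arrays ranged from -0.17 to 0.38 with a median of 0.02.

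Calr and Canx share a promoter element with members that did not pass. The ER stress element, searched on both strands as CCAAT and CCACG with 9 bases between them, is bound by factors of the unfolded protein response. It was present in the 250 bases before the start of 6 of 42 members with a promoter in RefSeq, or 14.3%, against 35 of 27025 genes, or 0.130%. The 6 members were Calr, Canx, Hspa5, Hsp90b1, Pdia6 and Dnajc3. The 250 bases of both members that fell are given with those of Hspa5 and Hsp90b1, which were chosen for contrast after their values were seen. Sequences are RefSeq's on the mouse build GRCm38.p6, read 5′ to 3′ on the gene's strand, and capitals mark the element on either strand.
Calr (chr8:84846932-84847181, minus strand): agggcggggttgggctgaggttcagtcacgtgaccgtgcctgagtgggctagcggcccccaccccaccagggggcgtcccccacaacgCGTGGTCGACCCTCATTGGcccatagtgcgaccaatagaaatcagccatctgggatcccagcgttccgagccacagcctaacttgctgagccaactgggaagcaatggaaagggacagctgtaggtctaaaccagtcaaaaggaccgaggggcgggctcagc
Canx (chr11:50325674-50325923, minus strand): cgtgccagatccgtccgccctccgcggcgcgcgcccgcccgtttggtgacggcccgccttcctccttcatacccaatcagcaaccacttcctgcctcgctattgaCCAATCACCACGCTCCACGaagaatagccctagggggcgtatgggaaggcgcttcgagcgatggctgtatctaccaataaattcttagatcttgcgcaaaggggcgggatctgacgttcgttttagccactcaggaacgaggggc
Hspa5 (chr2:34771840-34772089, plus strand): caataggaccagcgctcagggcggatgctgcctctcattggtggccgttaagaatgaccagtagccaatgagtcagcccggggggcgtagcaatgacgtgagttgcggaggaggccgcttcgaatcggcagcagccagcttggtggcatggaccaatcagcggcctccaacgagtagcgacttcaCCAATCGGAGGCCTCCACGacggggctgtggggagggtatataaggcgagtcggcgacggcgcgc
Hsp90b1 (chr10:86705445-86705694, minus strand): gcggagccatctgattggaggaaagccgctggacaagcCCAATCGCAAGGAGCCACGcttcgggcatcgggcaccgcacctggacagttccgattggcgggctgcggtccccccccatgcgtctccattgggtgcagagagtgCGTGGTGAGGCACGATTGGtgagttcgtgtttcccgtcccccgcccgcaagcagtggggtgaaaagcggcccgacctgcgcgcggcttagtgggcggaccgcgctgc

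Counted from the gene's start, with -1 the base before it, the element lay from -162 to -144 in Calr, from -145 to -127 in Canx and from -65 to -47 in Hspa5. Hsp90b1 had 2 copies, the first from -212 to -194 and the last from -107 to -89. Their ratios in the mean were -0.29 ± 0.07 for Calr and -0.35 ± 0.11 for Canx, which fell. The other holders of the element did not pass, with -0.16 ± 0.06 for Hspa5 (adjusted p = 0.0964), -0.09 ± 0.06 for Hsp90b1, -0.06 ± 0.05 for Pdia6 and -0.05 ± 0.06 for Dnajc3. All 6 fitted means were below 0, as were those of 27 of 49 members and 4036 of 8316 features. Single replicates were below 0 in 10 of 13 for Calr, Canx and Hspa5 and in 8 of 13 for Dnajc3. They were below 0 in only 5 of 13 for Hsp90b1 and 5 of 12 for Pdia6. Pdia4, the member with the lowest ratio, did not hold these letters in this window.

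Hspa5, or BiP, the Hsp70 protein of the ER lumen, had ratios of 0.11, -0.25, -0.40 and -0.15 (cortex), -0.13, -0.21 and 0.11 (hippocampus), 0.0017, -0.35 and -0.15 (cerebellum) and -0.05, -0.01 and -0.11 (brain stem-diencephalon). It was below 0 in 10 of 13 replicates, but its mean missed the threshold in the main fit. The mean passed without cortex replicate 3, with the repeated array in both regions and when the filter made no demand on orientation. It also passed with each array as its own replicate. One of the 2 tested Hspa5 probes passed by itself, at -0.24 ± 0.07 (adjusted p = 0.0421), and the other had -0.08 ± 0.06 (adjusted p = 0.389). A further Hspa5 probe outside the tests had a median ratio of -0.25 over 16 arrays. Hsp90b1, or Grp94, the Hsp90 protein of the ER, had ratios of 0.02, -0.05, 0.29 and -0.17 (cortex), -0.14, 0.02 and 0.05 (hippocampus), 0.23, -0.36 and 0.09 (cerebellum) and -0.05, 0.20 and 0.03 (brain stem-diencephalon). Its replicates lay on both sides of 0, and its mean was -0.09 ± 0.06 (SE, n = 13, adjusted p = 0.346).

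Hsph1 fell and Hspa13 rose among the 9 genes of the Hsp70 and Hsp110 family, and the other 7 did not pass. The share called was 22.2%, against 17.0% of all features tested. Hsph1, also called Hsp105 or Hsp110, releases clients from Hsp70 by exchanging its nucleotide. Its ratios were -0.11, -0.94, -0.73 and -0.97 (cortex), 0.02, -0.69 and -0.03 (hippocampus), -0.91 and -0.55 (cerebellum replicates 2 and 3) and -0.51, -0.72 and -0.67 (brain stem-diencephalon). The hippocampus values of replicates 1 and 3 and the cortex value of replicate 1 were nearest to 0, and 11 of 12 were below 0. Hsph1 averaged -0.67 ± 0.09 (SE, n = 12, adjusted p = 0.00117), 1.60-fold lower in null brain. It was the 1 member that passed in the mean under every single-replicate omission, including without cortex replicate 4 (-0.68, adjusted p = 0.0210).

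The promoters of Hsph1 and of the small heat shock protein Hspb1 are shown because both genes fell in cortex and carry paired heat shock half-sites. These were searched as GAANNTTC or TTCNNGAA, each of which reads the same on both strands. Of 42 members, 10 held one in the 250 bases before the start, or 23.8%, against 14.5% of all genes. Capitals mark the pair.
Hsph1 (chr5:149636337-149636586, minus strand): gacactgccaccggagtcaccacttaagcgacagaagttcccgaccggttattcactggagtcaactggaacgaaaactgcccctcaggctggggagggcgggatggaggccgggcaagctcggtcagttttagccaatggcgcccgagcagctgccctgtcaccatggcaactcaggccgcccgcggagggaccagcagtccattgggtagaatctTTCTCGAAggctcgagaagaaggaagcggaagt
Hspb1 (chr5:135887669-135887918, plus strand): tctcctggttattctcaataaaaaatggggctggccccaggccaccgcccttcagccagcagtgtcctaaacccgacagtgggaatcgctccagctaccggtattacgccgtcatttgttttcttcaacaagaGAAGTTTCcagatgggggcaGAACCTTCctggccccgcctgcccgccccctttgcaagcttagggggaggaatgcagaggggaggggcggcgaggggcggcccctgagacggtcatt

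The pair lay from -33 to -26 in Hsph1, and Hspb1 had 2, from -117 to -110 and from -97 to -90. Triples of half-sites were searched as GAANNTTCNNGAA or TTCNNGAANNTTC, which contain the pair. With the first 50 bases of the gene included, the triple was held by 4 of 42 members, or 9.52%, and by 0.662% of all genes. Hsph1 held it from 37 to 49 after its start, in this stretch (chr5:149636287-149636308, minus strand), with the triple in capitals.
Hsph1, triple: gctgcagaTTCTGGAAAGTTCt

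The other holders of the triple were Hspd1, Hspe1 and Dnajb6, none of which passed. Cct2 and Dnajc10, which rose, also held a pair.

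Hspa13, an Hsp70-like ATPase of the ER without the usual client-binding part, had ratios of -0.13, 0.28, 0.48 and 0.51 (cortex), -0.02, 0.25 and 0.04 (hippocampus), 0.05, 0.30 and 0.33 (cerebellum) and 0.06, 0.16 and 0.26 (brain stem-diencephalon). It was above 0 in 11 of 13 replicates, and both values below 0 were of number 1. Hspa13 averaged 0.24 ± 0.07 (SE, n = 13, adjusted p = 0.0337), 1.18-fold higher in null brain. Its call was lost without cortex replicate 2 (0.24, adjusted p = 0.0526) or 4 (0.19, adjusted p = 0.260), hippocampus 2 (0.21, adjusted p = 0.0946), cerebellum 2 (0.24, adjusted p = 0.120) or 3 (0.23, adjusted p = 0.0573), and brain stem-diencephalon 2 (0.24, adjusted p = 0.0525) or 3 (0.23, adjusted p = 0.0581).

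Hspa8, the constitutive cytosolic Hsp70, had ratios of 0.03, -0.33, 0.12 and -0.25 (cortex), -0.07, -0.05 and -0.04 (hippocampus), -0.05, -0.22 and 0.0016 (cerebellum) and 0.07, 0.08 and -0.06 (brain stem-diencephalon). They lay on both sides of 0, with the largest below it in cortex replicates 2 and 4 and cerebellum 2, and the mean of -0.12 ± 0.05 (SE, n = 13, adjusted p = 0.135) did not pass. Hspa14, a ribosome-associated Hsp70, had ratios of 0.19, 0.05, -0.61 and 0.10 (cortex), 0.09, 0.28 and 0.25 (hippocampus), 0.06, 0.28 and 0.13 (cerebellum) and -0.01, 0.19 and 0.36 (brain stem-diencephalon). Cortex replicate 3 was its lowest value and stood apart from the other cortex replicates, and the mean was 0.15 ± 0.07 (adjusted p = 0.160). The mitochondrial Hspa9 had 0.10 ± 0.05, the exchange factors Hspa4 and Hspa4l had 0.12 ± 0.09 and -0.03 ± 0.08, and the distant relative Hspa12a had 0.13 ± 0.08, with adjusted p between 0.138 and 0.780.

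Stip1 fell, while both measured Hsp90 proteins did not pass. Stip1, or Hop, the adaptor that holds Hsp70 and Hsp90 together, had ratios of -0.02, -0.53, -0.55 and -0.81 (cortex), -0.07, -0.54 and -0.38 (hippocampus), 0.33, -0.46 and 0.05 (cerebellum) and -0.14, -0.19 and -0.03 (brain stem-diencephalon). The unnumbered cortex replicate was the lowest, and both values above 0 were in cerebellum. Stip1 averaged -0.35 ± 0.08 (SE, n = 13, adjusted p = 0.0134), 1.28-fold lower in null brain, with 11 of 13 replicates below 0. The call was lost without cortex replicate 4 (-0.33, adjusted p = 0.129) or cerebellum 2 (-0.28, adjusted p = 0.0904). Hsp90aa1, the inducible cytosolic Hsp90, had ratios of 0.09, -0.19, -0.01 and -0.12 (cortex), 0.0012, -0.00081 and -0.34 (hippocampus), 0.38, 0.04 and 0.15 (cerebellum) and -0.05, 0.05 and -0.05 (brain stem-diencephalon). It averaged -0.02 ± 0.06 (SE, n = 13, adjusted p = 0.840), and its 7 probes, none of which passed, lay between -0.09 and 0.04.

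Of 20 tested J-domain proteins, which bring clients to Hsp70 and start its ATPase, 1 fell and 2 rose. The share called was 15.0%, against 17.0% of all features tested. Dnajb1, the inducible cytosolic Hsp40, had ratios of 0.19, -0.27, 0.02 and -0.57 (cortex), -0.10, -0.22 and -0.18 (hippocampus), 0.07, -0.49 and -0.15 (cerebellum) and -0.02, -0.08 and -0.02 (brain stem-diencephalon). The lowest values were those of cortex 4 and cerebellum 2, and 10 of 13 were below 0. Dnajb1 averaged -0.26 ± 0.06 (SE, n = 13, adjusted p = 0.0140), 1.20-fold lower in null brain. The call was lost without cortex replicate 4 (-0.22, adjusted p = 0.163) or cerebellum 2 (-0.23, adjusted p = 0.0893).

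Dnajc5, the cysteine string protein of synaptic vesicles, had ratios of 0.0031, 0.12, 0.18 and 0.89 (cortex), 0.13, 0.29 and 0.08 (hippocampus), -0.37, 0.32 and 0.18 (cerebellum) and 0.25, 0.0042 and 0.15 (brain stem-diencephalon). It was above 0 in 12 of 13 replicates, with the unnumbered cortex replicate the highest. Dnajc5 averaged 0.26 ± 0.07 (SE, n = 13, adjusted p = 0.0231), 1.19-fold higher in null brain. The call was lost without cortex replicate 4 (0.18, adjusted p = 0.186), hippocampus 2 (0.25, adjusted p = 0.0634) or cerebellum 2 (0.23, adjusted p = 0.107).

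Dnajc10, or ERdj5, which joins a J domain to thioredoxin domains and reduces disulfides in the ER, had ratios of 0.17, 0.35, 0.14 and 0.44 (cortex), -0.05, 0.28 and 0.42 (hippocampus), -0.08, 0.33 and 0.54 (cerebellum) and 0.20, 0.39 and 0.45 (brain stem-diencephalon). It was above 0 in 11 of 13 replicates and averaged 0.29 ± 0.07 (SE, n = 13, adjusted p = 0.0213), 1.22-fold higher in null brain. The call was lost without cortex replicate 4 (0.23, adjusted p = 0.216), hippocampus 2 (0.28, adjusted p = 0.0612) or cerebellum 2 (0.28, adjusted p = 0.0976). It was also lost when the filter made no demand on orientation, a setting that lets in a second Dnajc10 probe. The other ER J-domain proteins did not pass, with -0.15 ± 0.06 for Dnajb9 (adjusted p = 0.0948), -0.05 ± 0.06 for Dnajc3 and 0.02 ± 0.05 for Dnajb11. Dnajc30, a mitochondrial protein and the highest J-domain ratio that did not pass, had ratios of -0.08, 0.19, -0.05 and 0.20 (cortex), 0.42, -0.02 and -0.19 (hippocampus), 0.26, 0.20 and -0.07 (cerebellum) and 0.07, -0.21 and 0.10 (brain stem-diencephalon) and averaged 0.14 ± 0.06 (adjusted p = 0.134). The rest of the tested J-domain proteins ranged from -0.10 ± 0.05 for Dnajc21 to 0.13 ± 0.07 for Dnajc13. Dnajc17 was not tested for want of a fitted swapped array with a value in brain stem-diencephalon, and its 15 arrays had a median ratio of -0.18, with 10 of them below 0.

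Of the 8 chaperonin genes, only Cct2 passed in the mean, or 12.5%, against 17.0% of all features tested. Cct2, the beta subunit of the cytosolic CCT ring, had ratios of 0.13, 0.29, 0.57 and 0.55 (cortex), -0.07, 0.42 and 0.51 (hippocampus), 0.09, 0.26 and 0.42 (cerebellum) and 0.06, 0.63 and 0.25 (brain stem-diencephalon). All but hippocampus replicate 1 were above 0, and the 4 values of number 1 were the lowest of their regions. Cct2 averaged 0.29 ± 0.08 (SE, n = 13, adjusted p = 0.0309), 1.22-fold higher in null brain, and both of its probes passed by themselves. Its call was lost without cortex replicate 4 (0.19, adjusted p = 0.319), hippocampus 2 (0.26, adjusted p = 0.0872) and cerebellum 2 (0.28, adjusted p = 0.121) or 3 (0.28, adjusted p = 0.0531). The other CCT subunits among the members had 0.10 ± 0.06 for Cct4, 0.07 ± 0.06 for Cct7, 0.02 ± 0.06 for Cct8, -0.01 ± 0.05 for Cct5 and -0.02 ± 0.05 for Cct3, with adjusted p between 0.225 and 0.940. Tcp1, a CCT subunit not covered by the members' symbols, had 0.02 ± 0.06 (adjusted p = 0.878). The subunits work in 1 ring, but the ratio of Cct2 was not tested against theirs.

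The mitochondrial chaperonin and its lid did not pass. Hspd1, or Hsp60, had ratios of 0.16, -0.21, 0.03 and -0.18 (cortex), -0.13, -0.07 and 0.04 (hippocampus), -0.02, -0.12 and 0.01 (cerebellum) and 0.05, 0.19 and -0.06 (brain stem-diencephalon) and averaged -0.08 ± 0.05 (SE, n = 13, adjusted p = 0.270). Hspe1, or Hsp10, had ratios of -0.04, -0.08 and 0.34 (cortex replicates 1, 2 and 3), 0.04, -0.16 and 0.34 (hippocampus), -0.19, -0.44 and -0.16 (cerebellum) and -0.19, -0.65 and -0.24 (brain stem-diencephalon) and averaged -0.21 ± 0.09 (SE, n = 12, adjusted p = 0.134). The lowest Hspe1 value was brain stem-diencephalon replicate 2, and cortex and hippocampus lay on both sides of 0.

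The members named for binding heat shock proteins did not pass either. Hspbp1, an exchange factor of Hsp70, had -0.03 ± 0.07 (adjusted p = 0.800), and Hspbap1 had 0.0017 ± 0.08 (adjusted p = 0.991).

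**Figure D2:**
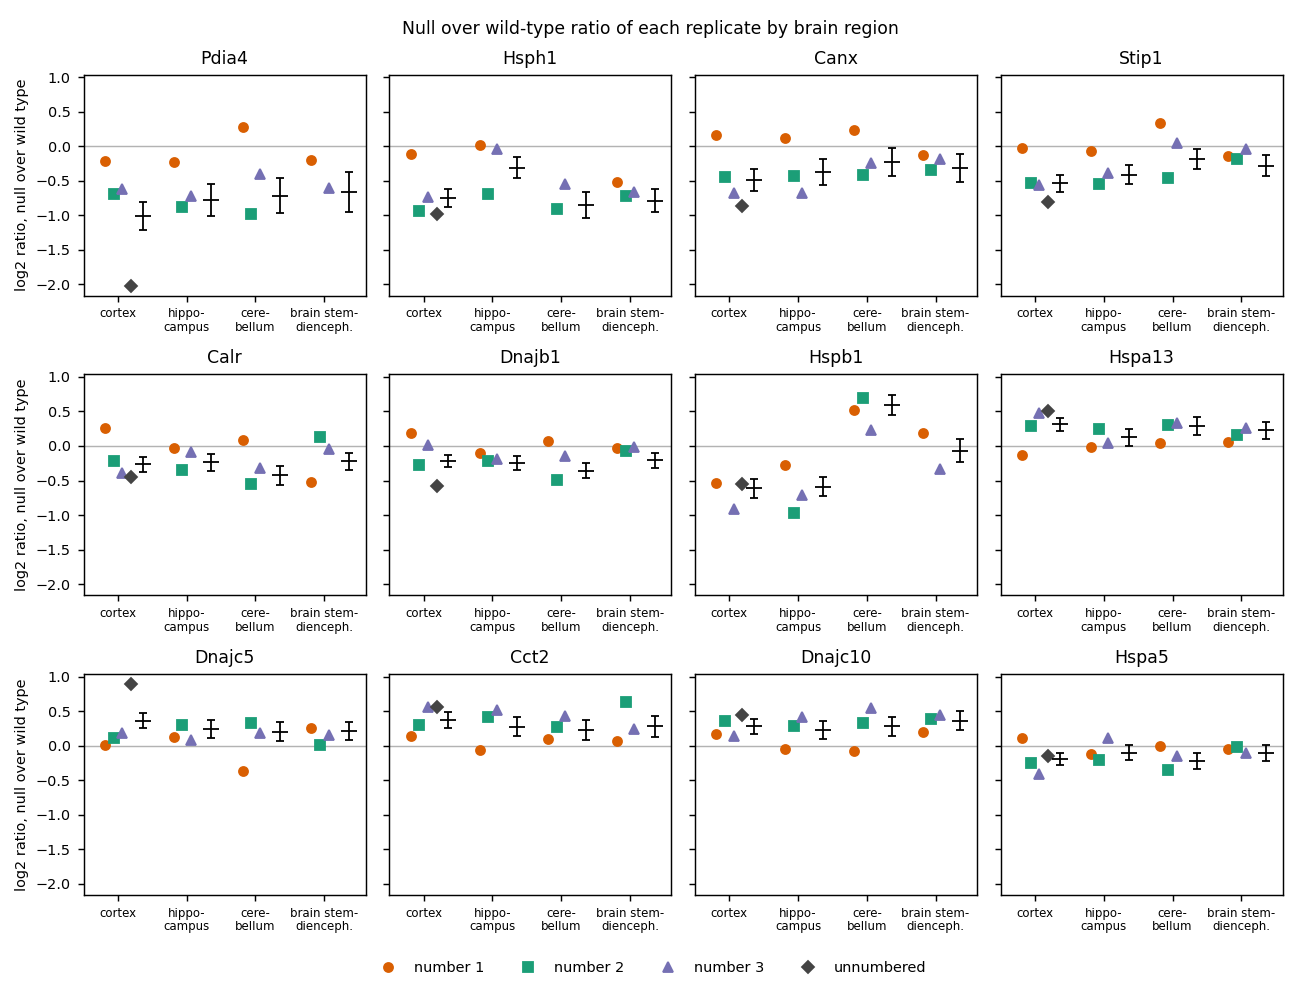
Log2 ratio of null over wild type (y axis) of each replicate in each region (x axis) for the 11 members that passed in the mean or in cortex, and Hspa5. Symbols mark the replicate number, and the black bar is the fitted region value with its standard error; the orange circles of number 1 are the highest values of each region for Pdia4 and Canx.

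By region, 4 of 49 members passed in cortex, or 8.16%, against 4.80% of all features tested (399), and all 4 fell, against 2.67% lower among all features (222). Pdia4 had -1.01 ± 0.20 (SE, n = 4, adjusted p = 0.0294), or 2.02-fold lower, and Hsph1 had -0.75 ± 0.13 (SE, n = 4, adjusted p = 0.0182), or 1.68-fold lower. Stip1 had -0.54 ± 0.12 (SE, n = 4, adjusted p = 0.0351), and Hspb1 had -0.61 ± 0.13 (SE, n = 3, adjusted p = 0.0400). All cortex replicates of these genes were below 0. Without cortex replicate 4 none passed, neither Pdia4 (-0.63, adjusted p = 0.474) nor Hsph1 (-0.75, adjusted p = 0.305), Stip1 (-0.51, adjusted p = 0.455) or Hspb1 (-0.49, adjusted p = 0.493), and 0.0481% of all features passed in that fit. All 4 calls were also lost without cortex replicate 2, with -1.13 for Pdia4, -0.68 for Hsph1, -0.54 for Stip1 and -0.61 for Hspb1. Hspb1 had no value in that replicate, so its ratio was unchanged. The 4 were lost as well without cortex replicate 3, with -0.97, -0.67, -0.45 and -0.54 in the same order. Without cerebellum replicate 2 the calls of Pdia4 (adjusted p = 0.0501), Stip1 (-0.52) and Hspb1 (-0.62) were lost. Without cerebellum replicate 3 or brain stem-diencephalon replicate 3 Stip1 (-0.54 in both) and Hspb1 (-0.62 and -0.63) were lost, the spread of a gene being estimated over all regions at once. Without cortex replicate 1, 10 members passed in cortex, or 20.4%, against 20.3% of all features.

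In the main fit no member passed in hippocampus, cerebellum or brain stem-diencephalon by limma's moderated test, where 0.517%, 0.529% and 0.313% of all features passed. With a block for replicate numbers, Hspb1, Pdia4 and Stip1 passed in hippocampus, Calr and Hsph1 in cerebellum and Hsph1 in brain stem-diencephalon. The same block took away the cortex calls of Pdia4, Stip1 and Hspb1 and left that of Hsph1. The labels do not say that numbers pair samples. In the main fit at an unadjusted p under 0.05 there were 8, 8 and 5 members, or 16.3%, 16.3% and 10.2% of those tested, against 14.4%, 15.7% and 12.0% of all features. Pdia4 had -0.78 ± 0.23, -0.71 ± 0.26 and -0.66 ± 0.29 in these regions, and Hsph1 had -0.31 ± 0.15, -0.85 ± 0.19 and -0.79 ± 0.17. Adjusted p of these 6 values lay between 0.0770 for Hsph1 in cerebellum and 0.401 for Pdia4 in brain stem-diencephalon.

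Hspb1, the small heat shock protein Hsp25 of the mouse, was the member whose regions lay farthest apart. Its ratios were -0.54, -0.92 and -0.55 (cortex replicates 1, 3 and 4), -0.27, -0.97 and -0.71 (hippocampus), 0.52, 0.69 and 0.23 (cerebellum) and 0.19 and -0.33 (brain stem-diencephalon replicates 1 and 3). All 3 cerebellum values were above 0, and all cortex and hippocampus values were below 0. The gene was picked for this distance, and the share of all features with such separation was not counted. The fitted ratio was -0.61 ± 0.13 in cortex, where it fell. Hippocampus had -0.59 ± 0.13 (adjusted p = 0.0959), cerebellum 0.60 ± 0.15 (adjusted p = 0.109) and brain stem-diencephalon -0.07 ± 0.16 (adjusted p = 0.901).

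The difference of cortex minus cerebellum was -1.21 ± 0.19 (adjusted p = 0.0546), and that of hippocampus minus cerebellum was -1.19 ± 0.19 (adjusted p = 0.0914). Both missed the threshold, which 0.0481% and 0.0241% of all features passed. The F test of equality over the regions gave an adjusted p of 0.125 for Hspb1, and 0.0120% of all features passed it. Without cortex replicate 1 both differences and the F test passed (-1.36, adjusted p = 0.0234, then -1.20, adjusted p = 0.0478, and an F test adjusted p of 0.0442). Without hippocampus replicate 1 both differences passed (-1.20, adjusted p = 0.0282, and -1.34, adjusted p = 0.0353), and without hippocampus replicate 2 the first did (-1.22, adjusted p = 0.0374). Other omissions but that of cortex replicate 2 took both further from the threshold. Adjusted p were 0.368 and 0.549 without cerebellum replicate 2, 0.265 and 0.432 without cerebellum replicate 1, and 0.103 and 0.585 without hippocampus replicate 3. Without cortex replicate 2 they were 0.0676 and 0.0671, so the second difference came nearer to the threshold. Under 24 alternatives the first difference passed in 7 and the second in 5, and both stayed below 0 in all 24.

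Markers of other cell types are given beside Hspb1 for the same regions. Of 9 microglial markers 3 were tested (C1qa, C1qc and Ctsd), and the median ratio was -0.20 in cortex, -0.12 in hippocampus and 0.35 in cerebellum, with -0.02 for brain stem-diencephalon. Of 9 myelin markers only Mbp was tested, at -0.30, -0.15 and 0.52 in cortex, hippocampus and cerebellum, with 0.28 for brain stem-diencephalon. None of these passed in any region. The median of 4 astrocyte markers was -0.13, -0.01 and 0.09 in cortex, hippocampus and cerebellum. Pecam1 had -0.43, -0.53 and -0.38 in these regions, Hbb-b1 had 0.63, 0.53 and 0.71, and Tubb3 had -0.81, -0.64 and -0.67. Ttr had -0.81, 0.61 and -0.74, and Nefl, the other neuronal marker tested, had 0.06, -0.01 and -0.26. Pecam1 passed in cortex and hippocampus, and Hbb-b1 and Tubb3 passed in cortex. The part of these markers in the values of Hspb1 was not tested. Hspb8, the other small heat shock protein measured, had -0.14 ± 0.12 in cortex and 0.05 ± 0.11 in cerebellum.

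Averaged over regions, replicates numbered 1 lay above the others for the members that fell. Over the 4 regions, Pdia4 averaged -0.09 in number 1 and -0.86 in the other replicates, and Hsph1 averaged -0.20 and -0.69. Canx averaged 0.10 in number 1 and -0.48 in the others, Stip1 0.03 and -0.38, Calr -0.05 and -0.26, and Dnajb1 0.04 and -0.22. This did not hold for every gene in brain stem-diencephalon, where number 1 was the lowest replicate for Calr and lay between the others for Stip1. The members that rose lay nearer to 0 in number 1 as well, with 0.06 and 0.43 for Cct2 and 0.06 and 0.37 for Dnajc10. Eif2s3y, a gene of the Y chromosome, had ratios of -1.36 to -0.54 in the 4 replicates of number 1 and of 0.93 to 1.64 in the 9 others. Its part in the members' values was not tested. With number 1 left out of all regions, an alternative chosen after seeing the data, 14 members passed in the mean and 14 in cortex, or 28.6% of those tested in each, against 28.8% and 27.9% of all features. The 10 members called with all replicates were among the 14 in the mean.

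The calls in the mean depended on single replicates. Without the unnumbered cortex replicate 4, 1 member passed (Hsph1), against 1.43% of all features, and without cerebellum replicate 2, 2 members passed (Hsph1 and Pdia4), against 3.16%. Without hippocampus replicate 2, 5 passed, or 10.2%, against 8.08% of all features. With all replicates and a block for replicate numbers, Canx, Cct2, Dnajb1, Dnajc10 and Hspa13 lost their calls in the mean. Calr, Dnajc5, Hsph1, Pdia4 and Stip1 kept theirs.

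The 2 channel orientations gave members unlike ratios. With the null RNA in channel 1, the median null over wild-type ratio of the members was 0.06, and 18 of 49 lay below 0. With the null RNA in channel 2 the median was -0.13, and 38 of 49 lay below 0. Over all features tested these medians were 0.02 and -0.01. A member had the same sign in both orientations in 19 of 49 cases, or 38.8%, against 54.3% of all features (4518 of 8316). The 10 members that passed did so in a mean over both orientations, so their signs in the 2 are not independent of that choice, and the sizes were unequal. The tested probe of Dnajb1 had -0.01 with the null RNA in channel 1 and -0.47 with it in channel 2, Stip1 had -0.09 and -0.66, and Dnajc5 had 0.04 and 0.44. Arrays of the orientations stand in part for different replicates, so a replicate's own value and its orientation are not fully separate.

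**Figure D3:**
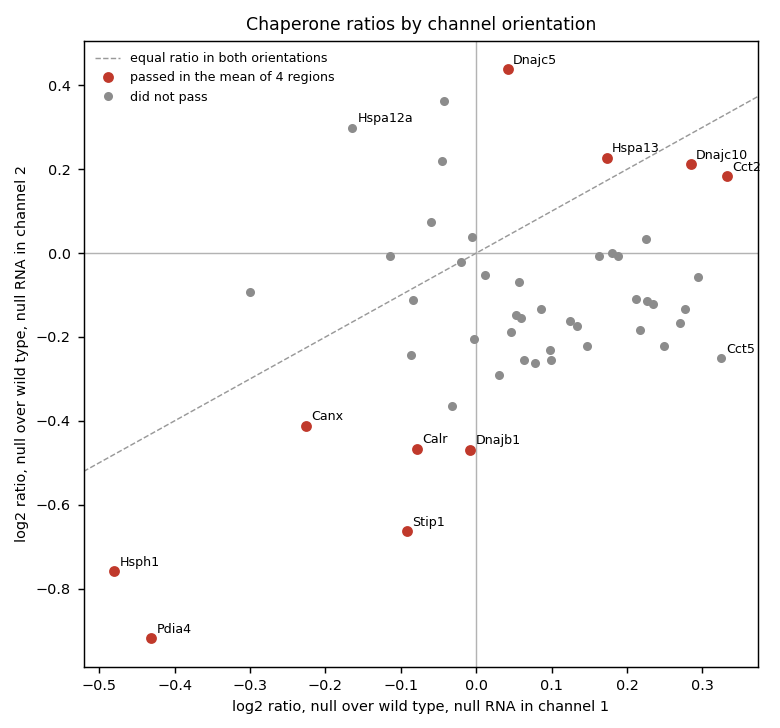
Mean log2 ratio of null over wild type of each member on arrays with the null RNA in channel 1 (x axis) and in channel 2 (y axis). Red points passed in the mean of 4 regions, which used both orientations; most grey points lie to the right of 0 and below it, and the dashed line marks equal ratios.

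The fit held a term for orientation, which is positive where a gene's deposited ratio leans to channel 1 whichever RNA is there. It was above 0 in 37 of 49 members, with a median of 0.11, against 4487 of 8316 features and a median of 0.01. Cct5, the epsilon subunit of CCT, was the 1 member past the threshold, at 0.37 ± 0.07 (adjusted p = 0.0340), and 1.02% of all features passed. Its replicates had ratios of 0.47, -0.17, 0.30 and -0.49 (cortex), 0.30, 0.35 and 0.39 (hippocampus), 0.36, -0.05 and 0.44 (cerebellum) and -0.13, 0.12 and 0.18 (brain stem-diencephalon). Its mean was 0.32 over 12 arrays with the null RNA in channel 1 and -0.25 over 6 arrays with it in channel 2, and the fitted mean of the regions was -0.01 ± 0.05. Both Cct5 probes passed by themselves, with 0.35 and 0.39. The orientation call was lost when any replicate but cortex 3 or hippocampus 1 or 3 was left out, with values of 0.33 to 0.39. Pdia4 had the largest orientation value among the members, 0.52 ± 0.18, but missed the threshold (adjusted p = 0.154). It had -0.43 over 11 arrays with the null RNA in channel 1 and -0.92 over 6 with it in channel 2.

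The unswapped and swapped arrays of a region did not mirror each other fully on the array as a whole. As deposited, all pairs of opposite orientation within a region, the repeated array included, correlated across probes at a median of -0.07. Among the fitted arrays, the median was -0.40 for the 12 opposite pairs without a number 1 array that had null RNA in channel 1. The median was 0.12 for the 6 pairs that held a number 1 array with null RNA in channel 1, and 0.39 for the 14 pairs of one orientation.

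Fitted separately, 16 of the 80 member probes passed in the mean, against 1642 of 9682, or 17.0%, of all probes, with 10 lower and 6 higher. Of the 16 genes with several tested probes, 11 had probes of one sign, the median gap between the highest and lowest probe was 0.13, and the largest was 0.35. That gap was in Cct4, whose probes had -0.07 ± 0.06 and 0.28 ± 0.07 (adjusted p = 0.0221 for the second). The 3 probes of Canx had -0.43 ± 0.12, -0.33 ± 0.10 and -0.26 ± 0.11, and the first 2 passed. Cct2 had 0.33 ± 0.08 and 0.25 ± 0.08. One probe of Hspa8 (-0.20 ± 0.06) and one of Dnajb9 (-0.22 ± 0.06) passed, while their other probes did not. Hsph1, Pdia4, Stip1, Calr, Dnajb1, Hspa13, Dnajc5 and Dnajc10 each rested on 1 tested probe. Dnajc10 had a second probe outside the tests, with a median ratio of 0.01 over 15 arrays, against the fitted mean of 0.29 for the tested one. Hsph1 and Dnajb1 had one as well, with medians of -0.62 over 18 arrays, the repeated array included, and -0.19 over 15. The untested Dnajb1 probe had 0.22 (hippocampus), -0.03 (cerebellum) and 0.25 (brain stem-diencephalon) with the null RNA in channel 2, unlike the tested one.

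**Figure D4:**
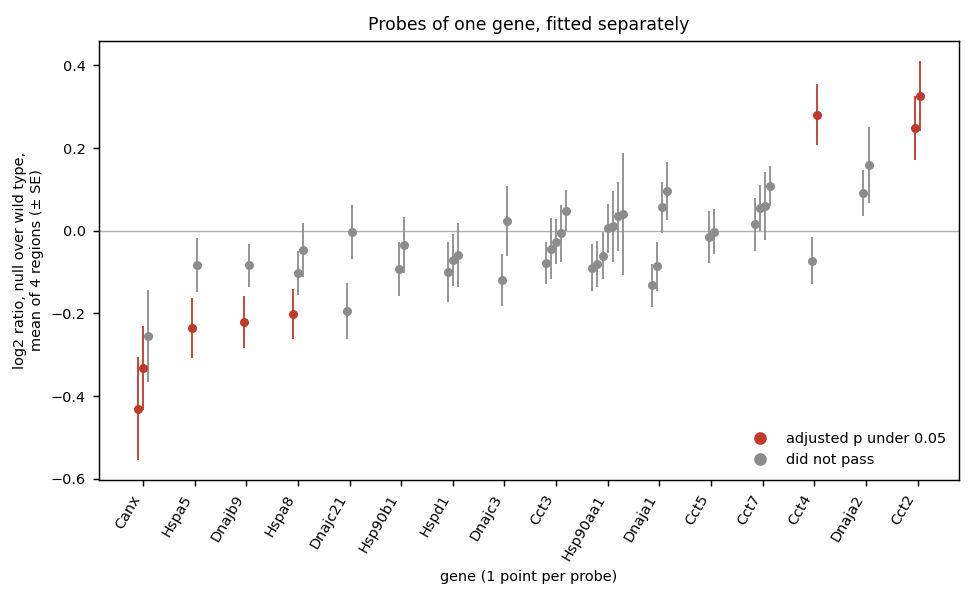
Log2 ratio of null over wild type in the mean of 4 regions (y axis, with standard error) of each probe of the 16 members with several tested probes (x axis). Red probes passed the test; the 3 Canx probes lie between -0.43 and -0.26, the 7 Hsp90aa1 probes lie around 0, and the 2 Cct4 probes stand apart.

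The partners of the members were described by 2 further lists. Of 39 cochaperones and heat shock factors 29 were tested, and 6 fell and 2 rose in the mean, with a median of -0.07. These were 20.7% lower and 6.90% higher, against 8.50% of all features in each direction. The Hsp90 cochaperones Chordc1 (-0.40, adjusted p = 0.00425), Fkbp4 (-0.39, adjusted p = 0.0376), Unc45a (-0.22, adjusted p = 0.0312) and Ahsa1 (-0.17, adjusted p = 0.0496) fell. Serpinh1, the collagen chaperone of the ER, fell as well (-0.30, adjusted p = 0.0128), and so did the membrane-bound Fkbp8 (-0.23, adjusted p = 0.0379). Pfdn5, a subunit of prefoldin, which hands clients to CCT, rose (0.44, adjusted p = 0.00270), as did the Hsp70 cofactor Bag4 (0.23, adjusted p = 0.0310). Cryab, a small heat shock protein not covered by the members' symbols, had -0.26 (adjusted p = 0.0547).

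Of 47 genes of ER folding and the unfolded protein response 24 were tested, and 3 fell and none rose in the mean, with a median of -0.04. The 3 were 12.5% of those tested, against 8.50% of all features lower and 17.0% called in either direction. Those that fell were Sec61a1, the channel of the ER translocon (-0.33, adjusted p = 0.0124), Prkcsh, the beta subunit of glucosidase II, which trims sugars for Canx and Calr (-0.33, adjusted p = 0.0161), and Erp44, a thioredoxin-like protein of the early secretory pathway (-0.26, adjusted p = 0.0152). The same 3 of 24 fell in cortex, with -0.41, -0.44 and -0.41, where 2.67% of all features fell. Xbp1 and Atf4, transcription factors of the response, had -0.04 and -0.06 and did not pass, and P4hb, the founding disulfide isomerase, had 0.08.

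Markers of cell types were few on the arrays, and some moved with the mutation in the same mean. Of 9 neuronal markers 2 were tested, and Tubb3 fell (-0.63, adjusted p = 0.00864), while Nefl had -0.05. Of 9 markers of vessel and blood 2 were tested, and Pecam1 fell (-0.44, adjusted p = 0.00417) and Hbb-b1 rose (0.56, adjusted p = 0.00734). The 4 tested of 8 astrocyte markers lay between -0.10 and 0.11, the 3 microglial markers between -0.08 and 0.10, Mbp had 0.09 and Ttr of the choroid plexus had -0.13, none past the threshold. Their part in the members' values was not tested.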

How the data were processed

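Each of 20 arrays with 2 channels compared null with pooled wild-type RNA of a brain region. The deposited values per array were log ratios that the authors had normalized, and they were read as log2. Neither the labels nor the file headers state the base, the channel order or the authors' steps, and intensities were not analysed here. The mutated gene is not reported here.

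Each array was centred on its median, swapped arrays were multiplied by -1, and arrays of a region with one number were averaged. Probes entered with values on 2 or more fitted arrays in every region, at least 1 of each orientation, and probes of a gene were averaged. A linear model per gene held 4 region terms and an orientation term, with variances moderated by limma 3.58.1 in R 4.3.3. Tests against 0 were two-sided, leave out the wild-type pool's own spread and were adjusted by Benjamini-Hochberg over all 8316 features, at a threshold of 0.05. The computation was tested on simulated data. Of 15245 probes, 9604 had a single symbol.

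Members and lists were chosen with earlier results of these data known. Named in full were the members past the threshold, the 6 highest and 6 lowest, and a list of central chaperones, and others were given by range. Alternatives covered replicates, filters, scaling, orientation and probes.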

Additional observations from a re-analysis of the deposited data

Results flagged for a closer look

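Hspa14 in cortex replicate 3 had a log2 ratio of -0.61, while the other cortex replicates had 0.19, 0.05 and 0.10. The gap to the nearest of them was 0.831 of the range of the group, just above Dixon's 95% critical value of 0.829 for 4 samples. Chance marks about 1 in 20 such groups, and 18 of the members described in full had 4 cortex values and were examined in this way.

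Hspb1 differed between regions with opposite signs. The ratio in cortex minus that in cerebellum was -1.21 (adjusted p = 0.0546), and hippocampus minus cerebellum was -1.19 (adjusted p = 0.0914). Every cerebellum replicate was above 0, and every measured replicate of cortex and hippocampus was below 0, but the share of all features with such separation was not counted. Neither difference passed the threshold after adjustment over all features.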

How the results depend on the processing

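Of 15 named values under 26 alternatives, 372 could be computed: 273 kept direction and call, 92 lost the call and 7 turned their sign. All 7 came from leaving the swapped arrays unturned, which gave 0.095 for Calr, 0.11 for Dnajb1, -0.11 for Dnajc5 and 0.11 for Stip1 in the mean, and 0.043 for Hsph1, 0.25 for Pdia4 and 0.10 for Stip1 in cortex. That setting left 0 cortex calls and called 15 members in the mean, 0 of them among the 10.

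Leaving out each replicate in turn gave 1 to 11 members called in the mean, 0 to 10 in cortex, 0 to 1 in cerebellum, brain stem-diencephalon and the F test, and 0 to 1 for orientation. With a replicate block, 5 members passed in the mean, 1 in cortex, 3 in hippocampus, 2 in cerebellum, 1 in brain stem-diencephalon, 1 in the F test and 0 for orientation. In the mean these were Calr, Dnajc5, Hsph1, Pdia4 and Stip1, so Canx, Cct2, Dnajb1, Dnajc10 and Hspa13 were no longer called. In single regions they were Hsph1 in cortex, Hspb1, Pdia4 and Stip1 in hippocampus, Calr and Hsph1 in cerebellum and Hsph1 in brain stem-diencephalon, and Hspb1 passed the F test and both differences from cerebellum (-1.23, adjusted p = 0.0291, and -1.19, adjusted p = 0.0418). Same-numbered replicates of different regions had residual correlations of -0.04 to 0.73, with a median of 0.38, against -0.18 for unlike numbers. Of 12 replicates, 9 correlated best with their own number, a hint from the data and not from the design.

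With number 1 left out, counts were 14 in cortex, 4 in hippocampus, 5 in cerebellum, 1 in brain stem-diencephalon and 0 for orientation. With each array as its own replicate, they were 16 in the mean, 11 in cortex, 3 in hippocampus and 5 in cerebellum. Brain stem-diencephalon had 1, the F test 1 and orientation 26. That setting counts a dye swap and the unswapped array of the same region and number as independent replicates. Fitting each probe gave 16 in the mean and 3 for orientation. Scaling arrays to one spread gave 0 in cortex, 1 in brain stem-diencephalon and 0 for orientation. Without the orientation term cortex had 2 and the mean 13, of which 7 were among the 10 (Calr, Dnajb1 and Dnajc5 were not), without centring orientation had 2, with orientation taken from the labels it had 0, and with the repeated array cerebellum had 1. Apart from the shares of all features given earlier, the counts of this section have no such share beside them. They therefore do not show whether the members moved more than the array as a whole. The cause of the moves between settings was not tested. The number of arrays limits all calls.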
